A study of Mus musculus with 6 samples.

Results

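Subiculum neurons are described here as the cells that the authors placed in the class Neuron_Subiculum, taken by its exact name, so that cells of the separate class Neuron_Subiculum_Entorhinal were left out. The class held 270 of the 12823 deposited cells, and 268 remained after 2 cells called as doublets were removed. Hippocampi of 6 APP/PS1 mice aged 10 weeks had been dissociated and profiled by Drop-Seq, in which single cells are captured in droplets with barcoded beads and each captured transcript is tagged at its 3′ end with a unique molecular identifier (UMI), so that a UMI stands for 1 captured molecule. The treated group was 3 mice given an antisense oligonucleotide (ASO), a short nucleic acid that binds a chosen RNA, and the control group was 3 mice given phosphate buffered saline (PBS). Both groups carry the B6.Cg-Tg(APPswe,PSEN1dE9)85Dbo transgenes, a mutant amyloid precursor and a mutant presenilin, so no mouse without amyloid transgenes entered the comparison. The labels name neither the sequence nor the dose of the ASO, and the control was saline and no control oligonucleotide, so effects of the target and of oligonucleotides in general cannot be told apart. The series title names reduction of IDOL, the ubiquitin ligase encoded by Mylip.

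The subiculum is the main output region of the hippocampal formation. Its pyramidal cells receive input from CA1 and send glutamatergic axons to the entorhinal cortex, the mammillary bodies and other targets outside the hippocampus. Glutamate is loaded into synaptic vesicles by the transporters VGLUT1 (Slc17a7), which most cortical and hippocampal pyramidal cells use, and VGLUT2 (Slc17a6), which is frequent in thalamus and is also found in part of the subiculum. In mouse models with amyloid transgenes the subiculum is among the regions where plaques appear early. IDOL marks receptors of the lipoprotein receptor family for degradation, which include the reelin receptors Vldlr and Lrp8 in neurons.

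The ASO mice contributed 51, 45 and 85 subiculum neurons with 59582, 56097 and 109403 UMIs, and the PBS mice contributed 28, 37 and 22 with 36738, 47113 and 30964 UMIs. Median UMIs per subiculum neuron were 1129, 1169 and 1274 in ASO mice and 1230, 1253 and 1450 in PBS mice. Of the cell barcodes, 8 were seen in more than 1 library and none of them belonged to a subiculum neuron. Each mouse is 1 library, replicate numbers are names only, and levels are given as CPM, the UMIs of a gene per 1000000 UMIs of the class, unless another set of cells is named. Because 3′ counts and pooled cells are compared here, CPM values are set side by side between classes and groups for 1 gene at a time.

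The markers given for the class were all present. Averaged over the 6 mice, Snap25, a protein of the vesicle fusion machinery, stood at 2990 ± 472 CPM, Nrgn, a calmodulin-binding postsynaptic protein, at 1050 ± 167 CPM, Chn1, a Rac-regulating protein, at 365 ± 113 CPM, Pde1a, a calmodulin-dependent phosphodiesterase, at 240 ± 77.9 CPM and Slc17a7 at 107 ± 45.3 CPM (SD, n = 6). Nrgn was alike in CA1 neurons, at 1064 ± 282 CPM (SD, n = 6). Chn1, Pde1a and Slc17a7 had higher means in CA1 neurons, at 555 ± 160, 719 ± 150 and 363 ± 85.0 CPM (SD, n = 6). High levels of these genes therefore do not mark the class against CA1 neurons. The vesicular transporter Slc17a6 differed from several neighbouring classes. It reached 282 ± 120 CPM in subiculum neurons, against 54.2 ± 56.4 CPM in the subiculum and entorhinal class, 34.6 ± 26.6 CPM in CA1 neurons and 0.726 ± 1.78 CPM in dentate neurons (SD, n = 6). It did not separate the class from Cajal-Retzius cells, which held 298 CPM. The classes were named by the authors from these same cells, so these levels are a description and carry no test.

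**Figure D1:**
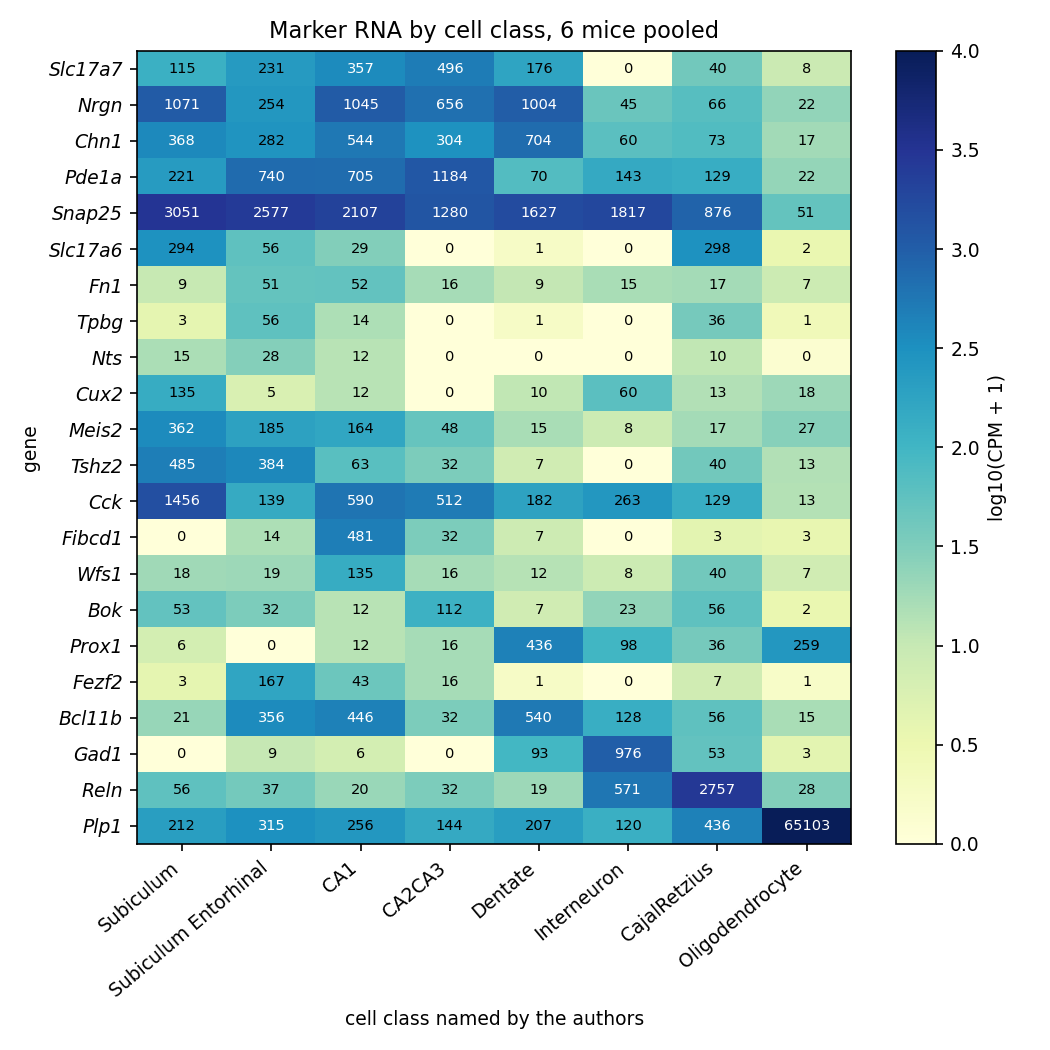
Level of each marker gene (rows) in 8 cell classes named by the authors (columns), as CPM printed in each tile over all 6 mice and shaded by log10(CPM + 1) on a scale that ends at 4. Slc17a6 stands at 294 CPM in subiculum neurons and at 298 CPM in Cajal-Retzius cells, and Gad1 is at 0 in subiculum neurons.

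The label was checked against a wider set of 10 subiculum markers, and the support was partial. In all, 6 of the 10 had at least 1 UMI and 4 were at 0, namely Ly6g6e, Scn4b, Dlk1 and Gpr101. Beyond Slc17a6, the contactin Cntn6 had 17 UMIs, the transcription factor Etv1 had 9, the peptide precursor Nts had 5, the matrix protein Fn1 had 3 and Tpbg had 1 UMI. Fn1 stood at 8.83 CPM in subiculum neurons, against 51.8 CPM in CA1 neurons. The class is therefore best described as the VGLUT2-rich glutamatergic class that the authors call subiculum, with most of the listed subiculum markers low or at 0.

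Markers of neighbouring regions were mixed. The CA1 marker Fibcd1 had no UMI, which with 3 UMIs as the limit of detection allows up to 8.83 CPM, against 481 CPM in CA1 neurons, and Wfs1 stood at 17.7 CPM, against 135 CPM in CA1 neurons. Other genes on the CA1 list were present: Mpped1 at 194 CPM, Man1a at 97.1 CPM and Pou3f1 at 94.2 CPM. Summed, the 8 genes of the CA1 list ran from 553 to 612 CPM in ASO mice and from 446 to 680 CPM in PBS mice. The 10 subiculum markers summed to 356 to 520 CPM in ASO mice and 218 to 467 CPM in PBS mice. The class therefore did not stand out by a higher sum of its own list. Of 7 CA3 markers, 6 had a UMI. Summed, they ran from 487 to 499 CPM in ASO mice and from 327 to 646 CPM in PBS mice. Prox1, which marks granule cells of the dentate gyrus, had 2 UMIs in the class. Of the 8 dentate markers listed, 6 had a UMI. Their sum ran from 50.4 to 250 CPM in ASO mice and from 81.7 to 149 CPM in PBS mice. The deep-layer cortical factors Bcl11b and Fezf2 stood at 20.6 and 2.94 CPM in subiculum neurons, against 356 and 167 CPM in the subiculum and entorhinal class. All 9 deep-layer markers listed had a UMI in subiculum neurons. Their sum ran from 137 to 218 CPM in ASO mice and from 106 to 136 CPM in PBS mice. Gad1, Gad2 and Slc32a1, which mark GABAergic neurons, had no UMI in any of the 268 cells.

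VGLUT1 and VGLUT2 transcripts were each seen in a minority of the cells. Slc17a6 had a UMI in 72 of 268 cells (26.9%), Slc17a7 in 36 cells (13.4%), both in 7 cells, and 167 cells held neither. With detection this sparse few cells would show both in any case, so separate VGLUT1 and VGLUT2 cells are not shown. The same transcripts were seen in 0.267% and 0.867% of 3000 oligodendrocytes, which should lack both, at a median of 1037 UMIs per cell, against 1222 in subiculum neurons. In CA1 neurons the order was the other way, with Slc17a6 in 3.51% and Slc17a7 in 34.7% of 285 cells at a median of 1152 UMIs. By mouse, the share of subiculum neurons with a Slc17a6 UMI was 33.3%, 31.1% and 27.1% in ASO mice and 14.3%, 24.3% and 22.7% in PBS mice. The share with a Slc17a7 UMI was 15.7%, 20% and 14.1% in ASO mice and 7.14%, 8.11% and 9.09% in PBS mice. Every ASO mouse lay above every PBS mouse for both shares. By CPM, the ASO mice lay entirely above the PBS mice for 46 of the 1062 genes tested below (4.33%), and for Slc17a6 the groups overlapped. Of the cells with a Slc17a6 UMI, 9 belong to a group of 11 cells described below. That group held 6, 4 and 0 cells of ASO mice and 1, 0 and 0 of PBS mice. At these depths a cell with no UMI is not shown to lack the transcript, and these intervals and limits cover counting error only.

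The genes most enriched against all other neuron classes summed were led by Ctxn3, which encodes cortexin 3, at 85.3 CPM in subiculum neurons against 0.818 CPM in other neurons. That sum held 2030 cells, of which 1122 were dentate neurons, so a high ratio does not show a difference from each neighbouring class. Among the 20 leading genes with at least 50 CPM were several transcription factors. Cux2 stood at 135 CPM against 12.7 CPM in other neurons, Tshz2 at 485 against 52.3 CPM, Tox at 312 against 34.3 CPM and Meis2 at 362 against 51.9 CPM. Another group was receptors and secreted proteins: Chrm2, the M2 muscarinic acetylcholine receptor, at 168 against 9.81 CPM, Rxfp1, a relaxin receptor, at 165 against 22.5 CPM, Npsr1, the neuropeptide S receptor, at 76.5 against 8.59 CPM, and the chemokine Cxcl14 at 153 against 18.4 CPM. Kcns1, a modulatory potassium channel subunit, stood at 61.8 against 6.54 CPM, and Ddit4l, an inhibitor of mTOR signalling, at 115 against 4.09 CPM. Others among the leaders were Sln, Tnnt2, Cdh20, Vwc2l, Cdkn1a, Efcab6, Slc17a6 and Cobl. Tshz2, Vwc2l and Rxfp1 were shared with the subiculum and entorhinal class, where they reached 384, 153 and 134 CPM. The peptide precursor Cck, often used as an interneuron marker and also made by pyramidal cells, stood at 1456 CPM in subiculum neurons against 242 CPM in other neurons, and was seen in 65.3% of the cells.

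Among nuclear-encoded genes the most UMIs came from Malat1 and Meg3, nuclear noncoding RNAs, at 13339 and 9085 CPM, and then from Snhg11 at 5516 CPM. Meg3 and Snhg11 stood at 4777 and 2584 CPM in other neurons, below their level in every subiculum library, where the lowest values were 8203 and 5232 CPM. Genes of amyloid biology were well covered. Prnp, the prion protein gene, stood at 4298 CPM and App at 2183 CPM, and the Prnp promoter is the one that drives both transgenes of this strain, so transgene transcripts may share reads with these genes and the counts of App and Prnp are uncertain. App was at 2397 ± 803 CPM in ASO mice and 2037 ± 401 CPM in PBS mice (SD, n = 3 each), with a log2 change of 0.20 (SE 0.295).

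RNA of other cell types was also present. Ttr, the transthyretin gene of choroid plexus, ranked 7th by UMIs at 3263 CPM, against 3317 CPM in oligodendrocytes, and it ranged from 0 to 5274 CPM among the 6 mice. Summed choroid plexus markers ran from 1444 to 5347 CPM in ASO mice and from 0 to 4309 CPM in PBS mice. Summed oligodendrocyte markers ran from 688 to 784 CPM in ASO mice and from 484 to 1083 CPM in PBS mice, and all 6 of that list had a UMI. Summed astrocyte markers ran from 587 to 820 CPM in ASO mice and from 581 to 743 CPM in PBS mice, with Gja1 at 0. Summed microglia markers were 33.6 to 54.8 CPM in ASO mice and 63.7 to 218 CPM in PBS mice, so the groups did not overlap, on 24 UMIs in all. Of Cajal-Retzius markers, Calb2 had 52 UMIs in a group of 11 cells described below and 4 UMIs in the other 257 cells. Reln had 19 UMIs, Ndnf 5 and Trp73 3, and Lhx1 and Lhx5 had none. Summed Cajal-Retzius markers ran from 18.3 to 446 CPM in ASO mice and from 64.6 to 626 CPM in PBS mice. Summed endothelial markers were 83.9 to 311 CPM in ASO mice and 226 to 381 CPM in PBS mice. The part of these RNAs in the results below was not tested gene by gene, and counts without cells that held them are given beside the comparison.

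Within the class, the main axis of variation was the share of UMIs from long genes. Across 268 cells, the leading principal component correlated at r = 0.939 with the share of UMIs from genes of 100 kb or more, both being taken from the same UMIs. One end was led by Lingo2, Csmd1, Ptprd, Tenm2, Hs6st3, Cntn5 and Sgcz, neuronal genes of 731.5 to 2271 kb. The other end included Cplx2, Nefl, Tmsb4x and Scg2, genes of vesicle release, cytoskeleton and secretion whose lengths ran from 2.22 to 12.6 kb. The long-gene share ran from 17.4% to 58.6% with a median of 26.5%, and 45 cells (16.8%) lay at 40% or more, 9 of all cells being within 2 percentage points of that limit. In oligodendrocytes the median was 19.6% and 1 of 3000 cells reached 40%, whereas CA1 and dentate neurons had 15.1% and 14.6% of cells there.

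**Figure D2:**
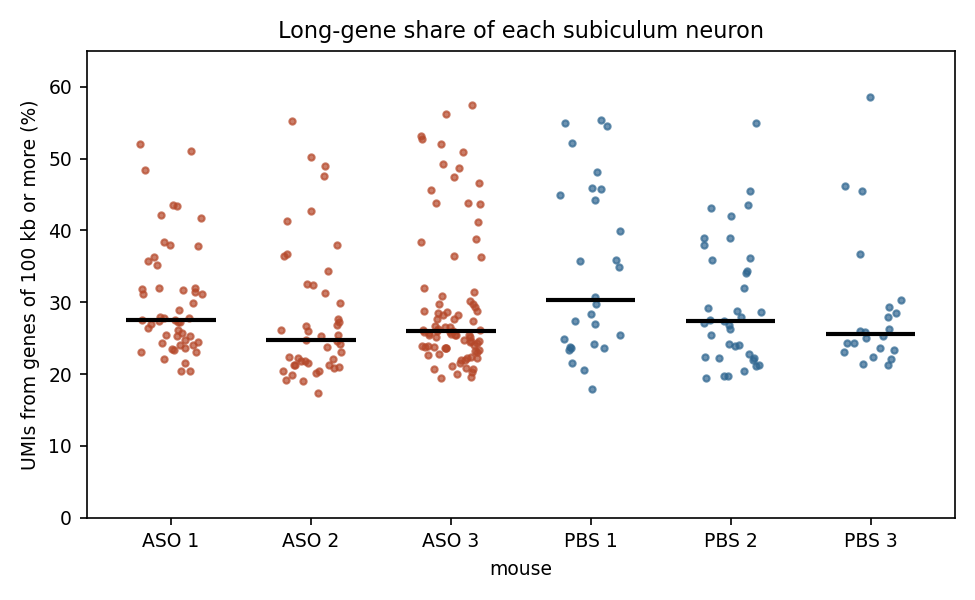
Share of UMIs from genes of 100 kb or more in each subiculum neuron (1 point per cell, vertical axis in percent) by mouse, with ASO mice in red, PBS mice in blue and the median as a black line. Medians lie between 24.8% and 30.3%, the groups overlap, and the highest single cell, at 58.6%, is in PBS mouse 3.

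By mouse, the median long-gene share was 27.5%, 24.8% and 26.0% in ASO mice and 30.3%, 27.4% and 25.6% in PBS mice, so the groups overlapped. Cells at 40% or more made up 13.7%, 13.3% and 17.6% of subiculum neurons in ASO mice and 32.1%, 13.5% and 13.6% in PBS mice. The high value was PBS mouse 1 alone. The same mouse was also highest in the subiculum and entorhinal class (35.3%), in CA1 neurons (27.8%) and in dentate neurons (22.5%).

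A small group of cells stood apart inside the class. Clustering of the 268 cells gave groups of 129, 67, 61 and 11 cells. The group of 11 was the same at a finer resolution. It held 52 UMIs of Calb2, the calcium binder calretinin, against 4 UMIs in the other 257 cells. It also held 132 UMIs of Pcp4, a calmodulin regulator, against 30, all 37 UMIs of Sln, which encodes sarcolipin, a regulator of the calcium pump of the endoplasmic reticulum, and 20 of 29 UMIs of Ctxn3. Transcription factor genes Eomes, Ebf2, Ebf3 and Zfhx3 and the semaphorin receptor Nrp2 were among its 20 leading genes, with 6, 6, 8, 7 and 13 UMIs. Slc17a6 was seen in 9 of the 11 cells, and neither Slc17a7 nor Nrgn had a UMI in them. Of these 11 cells 6, 4 and 0 came from ASO mice and 1, 0 and 0 from PBS mice. Sln and Ctxn3 therefore led the class through few cells: without the group Sln was at 0 and Ctxn3 at 27.6 CPM, while Cux2, Tshz2, Meis2 and Chrm2 stayed at 132, 488, 378 and 150 CPM. These genes defined the group, so no test was made and the group is left unnamed. The group of 129 cells held 15, 28 and 57 cells of ASO mice and 4, 18 and 7 of PBS mice, and Scg2 and Vdac1 were among its 20 leading genes. The group of 67 held 11, 8 and 19 cells of ASO mice and 14, 11 and 4 of PBS mice, and Hs6st3, Sgcz, Lingo2 and Cntn5 were among its leading genes. The group of 61 held 19, 5 and 9 cells of ASO mice and 9, 8 and 11 of PBS mice. Several of these leading genes are also among those of smallest p between ASO and PBS mice, so group sizes are not compared between ASO and PBS mice, and their part in the gene results was not tested.

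The next question was whether the ASO changed how many subiculum neurons were recovered. They made up 1.81%, 2.14% and 4.85% of all cells in ASO mice and 1.54%, 1.84% and 1.04% in PBS mice. The value of ASO mouse 3 stood well above the others, with a 95% Wilson interval of 3.94% to 5.96%, and the lowest ASO value lay inside the PBS range. The mean was 2.94 ± 1.67% in ASO mice and 1.47 ± 0.402% in PBS mice (SD, n = 3 each), and the exact two-sided permutation test gave p = 0.2 (0.4 adjusted over 4 quantities), where 0.1 is the smallest p that 20 assignments allow. Without ASO mouse 3 the difference was 0.503 percentage points, against 1.46 with all mice. As a share of neurons, subiculum cells made up 10.8%, 12.2% and 24.9% in ASO mice and 8.62%, 9.95% and 5.28% in PBS mice. Here the groups did not overlap (exact permutation p = 0.1, 0.4 adjusted), but both denominators depend on how the tissue was cut and dissociated, which was not measured.

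**Figure D3:**
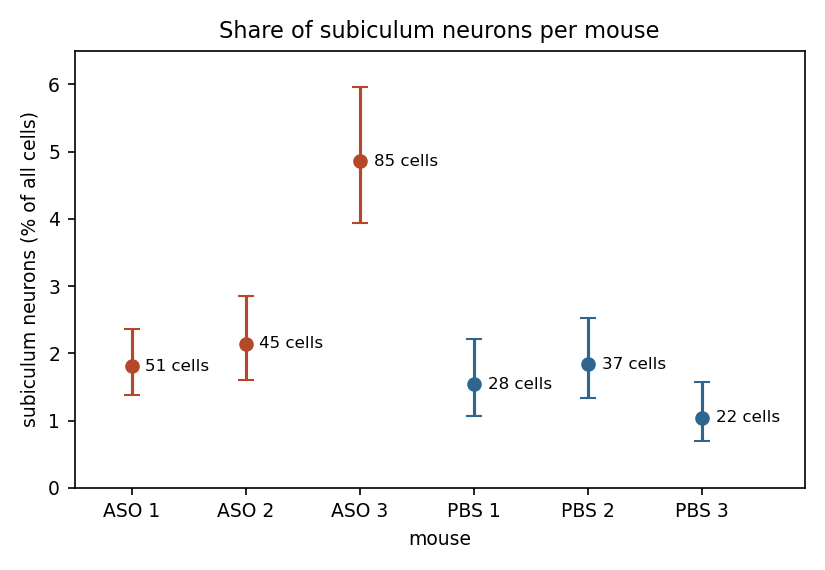
Subiculum neurons as a percentage of all cells in each mouse (points), with 95% Wilson intervals that cover counting error only and the number of cells beside each point. ASO mouse 3 stands at 4.85% and the other 5 mice lie between 1.04% and 2.14%.

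Mylip, the gene of IDOL, was too rare in subiculum neurons to show its knockdown. Its UMIs numbered 1, 1 and 0 in ASO mice and 0, 2 and 1 in PBS mice, which is 5 UMIs in the class. The level was 11.5 ± 10.0 CPM in ASO mice and 24.9 ± 22.2 CPM in PBS mice (SD, n = 3 each), with an exact permutation p of 0.5. In the mice at 0, a count of 0 allows up to 27.4 CPM in ASO mouse 3 and 81.7 CPM in PBS mouse 1, so a change was not detectable at this depth. Of 14 genes on the list of lipoprotein receptors and partners, all had a UMI and 2 had enough to be tested. Lrp1b, a large endocytic receptor, was at 848 ± 119 CPM in ASO mice and 1188 ± 351.9 CPM in PBS mice (SD, n = 3 each), and its log2 change of -0.52 (SE 0.300) did not pass. The other was Dab1, the adaptor that binds the reelin receptors inside the cell, which is among the genes of smallest p. Vldlr, with 23 UMIs in the class, was at 76.5 ± 57.7 CPM in ASO mice and 69.7 ± 37.2 CPM in PBS mice, and Lrp8, with 14 UMIs, at 38.7 ± 19.3 CPM in ASO mice and 43.1 ± 11.1 CPM in PBS mice (SD, n = 3 each), both too rare to test.

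ASO and PBS mice were then compared gene by gene on UMIs summed over the subiculum neurons of each mouse. Among 1062 genes with enough counts, 2 passed edgeR's quasi-likelihood test at a Benjamini-Hochberg adjusted p under 0.05, both lower in ASO mice, which is 0.188% of the genes tested. No gene was called higher, although 26 genes were higher and 36 lower at an unadjusted edgeR p under 0.05 (62 genes or 5.84%). DESeq2 was run on 15165 genes with no filter on low counts and called none, as did edgeR on those genes. Limma voom on the 1062 genes called 1. The ASO mice lay entirely below the PBS mice for 57 genes (5.37%) and entirely above them for 46 (4.33%), which is 103 genes (9.7%) with no overlap. The 2 called genes were the ion channel gene Trpm3 and the synaptic adhesion gene Nlgn1.

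Trpm3 encodes a calcium-permeable cation channel that opens with heat and neurosteroids, and lies on chromosome 19 at 22139046 to 22995410 of GRCm38, plus strand, over 856 kb. Its UMIs numbered 13, 5 and 18 in ASO mice and 19, 16 and 22 in PBS mice, or 218, 89.1 and 165 CPM in ASO mice and 517, 340 and 711 CPM in PBS mice. All 3 ASO mice lay below all 3 PBS mice. The log2 change was -1.67 (SE 0.362, adjusted p by edgeR = 0.0248). Cells with a Trpm3 UMI numbered 9, 4 and 17 in ASO mice and 10, 10 and 7 in PBS mice. A single cell of PBS mouse 3 held 11 of that mouse's 22 UMIs.

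Nlgn1 encodes neuroligin 1, the postsynaptic partner of neurexins at excitatory synapses, and lies on chromosome 3 at 25426215 to 26332460 of GRCm38, minus strand, over 906 kb. Its UMIs numbered 29, 20 and 47 in ASO mice and 50, 46 and 27 in PBS mice, or 487, 357 and 430 CPM in ASO mice and 1361, 976 and 872 CPM in PBS mice. The groups did not overlap, and the log2 fold change was -1.35 (SE 0.308, adjusted p by edgeR = 0.0272). Cells with a Nlgn1 UMI numbered 23, 11 and 19 in ASO mice and 18, 23 and 8 in PBS mice.

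Both calls were lost in several fits with fewer cells or mice. The cell of PBS mouse 3 with 11 Trpm3 UMIs also held 10 of that mouse's 27 Nlgn1 UMIs, 10 UMIs of Sgcz and 10 of Lingo2, and had the highest long-gene share of the class (58.6% of 1583 UMIs), with no UMI of Slc17a6, Slc17a7 or Ttr. Without that 1 cell no gene passed, 53 being at an unadjusted edgeR p under 0.05, and the log2 fold changes were -1.34 for Trpm3 (SE 0.362, adjusted p by edgeR = 0.218) and -1.22 for Nlgn1 (SE 0.330, adjusted p by edgeR = 0.218). Without PBS mouse 3 no gene passed, at log2 changes of -1.40 for Trpm3 (adjusted p by edgeR = 0.430) and -1.46 for Nlgn1 (adjusted p by edgeR = 0.129). Without ASO mouse 2 no gene passed either, at -1.43 for Trpm3 and -1.23 for Nlgn1 (adjusted p by edgeR = 0.495 for both). Nlgn1 also missed the threshold without ASO mouse 3 (log2 change -1.37, adjusted p by edgeR = 0.104) and without PBS mouse 1 (log2 change -1.10, adjusted p by edgeR = 0.376). Without the 11 cells led by Calb2 no gene passed, at -1.59 for Trpm3 and -1.26 for Nlgn1 (adjusted p by edgeR = 0.0938 for both). Cells with 3 or more glial marker UMIs numbered 5, 8 and 15 in ASO mice and 5, 7 and 1 in PBS mice, and without them the log2 fold changes were -1.52 for Trpm3 and -1.40 for Nlgn1 (adjusted p by edgeR = 0.0720 for both).

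**Figure D4:**
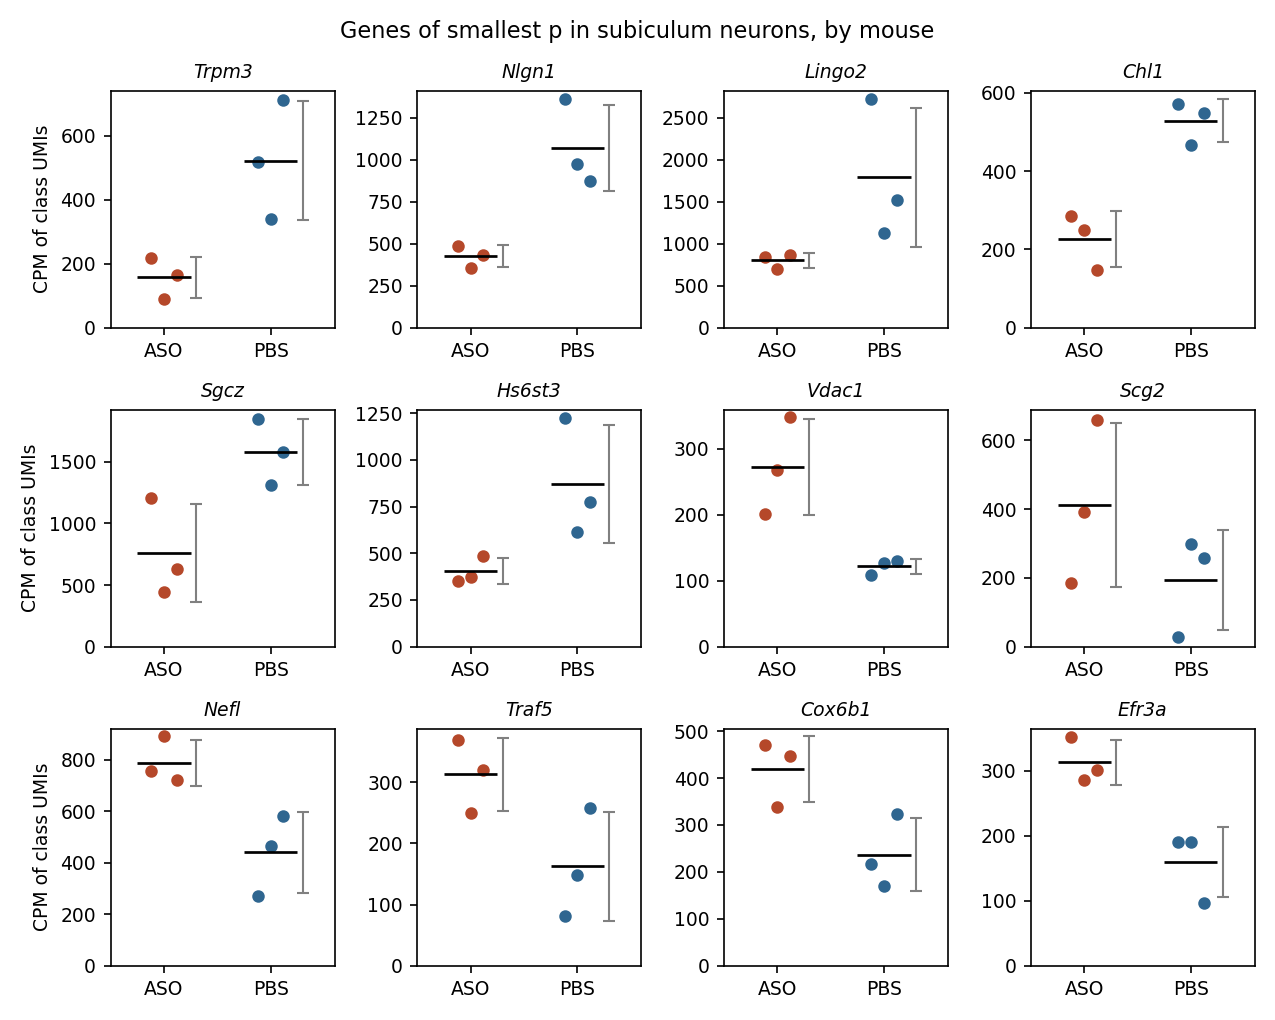
Level of 12 genes among those of smallest p in each direction, in CPM of all UMIs of the class (vertical axes start at 0). Each mouse is 1 point, ASO left and PBS right, with the mean as a black line and the SD as a grey bar (n = 3 each). Trpm3 and Nlgn1 are the genes that passed, and the other 10 did not.

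The 8 genes next in order of p among those lower in ASO mice did not pass. Lingo2, a leucine-rich repeat protein of the neuronal surface, was at 839, 695 and 868 CPM in ASO mice and 2722, 1125 and 1518 CPM in PBS mice (log2 change -1.17, SE 0.310, adjusted p by edgeR = 0.106). Chl1, an adhesion molecule of the L1 family, was at 285, 250 and 146 CPM in ASO mice and 572, 467 and 549 CPM in PBS mice (log2 change -1.29, SE 0.344, adjusted p by edgeR = 0.106). The groups did not overlap for either gene. Sgcz, which encodes zeta-sarcoglycan, was at 1208, 446 and 631 CPM in ASO mice and 1851, 1316 and 1582 CPM in PBS mice (log2 change -1.08, SE 0.313, adjusted p by edgeR = 0.210). Hs6st3, a heparan sulfate sulfotransferase, had a log2 change of -1.09 (SE 0.320), and Dab1, whose mean was 471 ± 88.3 CPM in ASO mice and 904 ± 81.9 CPM in PBS mice (SD, n = 3 each), of -0.98 (SE 0.303, adjusted p by edgeR = 0.324). Mgat4c, Cntn5 and Abi2, which encodes a regulator of actin assembly, followed with log2 fold changes of -0.98, -0.91 and -1.01. All 10 of the genes of smallest p among those lower in ASO mice had ASO mice entirely below PBS mice. They were chosen by p from these same values, so this is no further support. Over all 1062 tested genes it held for 57 (5.37%). Of the 10 genes, those other than Abi2 (71.5 kb) were 239.6 to 1245 kb long.

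The genes nearest to the threshold among those higher in ASO mice were 3.88 to 214.3 kb long and none passed. Vdac1, the main anion channel of the outer mitochondrial membrane, was at 201, 267 and 347 CPM in ASO mice and 109, 127 and 129 CPM in PBS mice (log2 change 1.18, SE 0.440, adjusted p by edgeR = 0.705). Nefl, the light neurofilament subunit, was at 755, 891 and 722 CPM in ASO mice and 272, 467 and 581 CPM in PBS mice (log2 change 0.83, SE 0.324, adjusted p by edgeR = 0.739). Scg2, which encodes secretogranin II of dense-core vesicles, was at 185, 392 and 658 CPM in ASO mice and 27.2, 297 and 258 CPM in PBS mice, so its groups overlapped (log2 change 1.12, SE 0.423). The others were Traf5, an adaptor of TNF receptors, Epb4.1l3, a membrane skeleton protein, Cox6b1, a subunit of cytochrome c oxidase, Efr3a, a membrane anchor of a lipid kinase, the splicing factor Srsf3, 2900011O08Rik and Tspyl4, with log2 fold changes from 0.83 to 1.39 and edgeR adjusted p values from 0.739 to 0.818.

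Long genes as a whole lay lower in ASO mice. Of 185 tested genes of 300 kb or more, 131 (70.8%) were lower, the median log2 fold change was -0.27, and 24 were lower and 1 higher at an unadjusted edgeR p under 0.05. Both called genes were among them. In the 4 bins of shorter genes the median lay between 0.01 and 0.08, and over all 1062 genes it was 0.01 with 520 lower. In all other neuron classes summed, the same 185 genes had a median of -0.03, and 104 (56.2%) were lower. The difference between the groups of cells was not tested for the bin as a whole. The shift rested in large part on PBS mouse 1, which had the highest share of cells at 40% or more (32.1%): without that mouse the median of genes of 300 kb or more was -0.06 with 55.2% lower, and without ASO mouse 2 it was -0.17. Without the 45 cells at 40% or more it was -0.15, no gene passed, with 40 at an unadjusted edgeR p under 0.05, and the log2 fold changes were -0.77 for Trpm3 (SE 0.494) and -0.99 for Nlgn1 (SE 0.345).

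**Figure D5:**
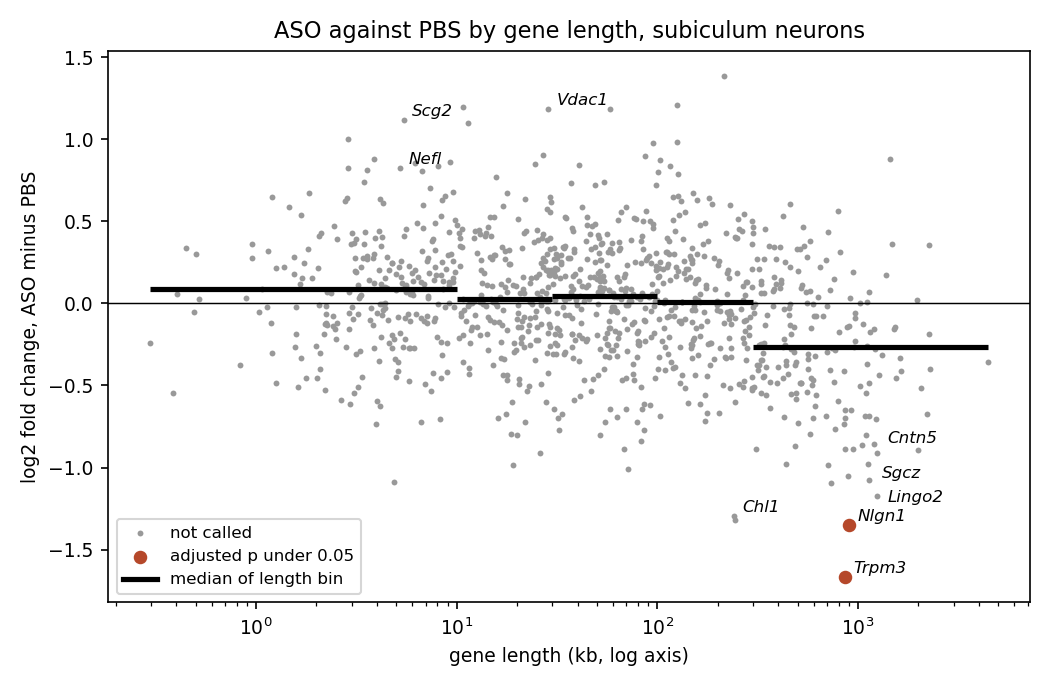
Log2 fold change of each tested gene in subiculum neurons (ASO minus PBS, vertical axis) against gene length in kb (log axis), with called genes in red and the median of each length bin as a black line. The median is -0.27 for genes of 300 kb or more and lies between 0.01 and 0.08 in the other bins.

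Levels of both called genes were also set out by the long-gene share of the cell. In cells under 25%, Trpm3 stood at 43.3 CPM in ASO mice (69 cells) and 207 CPM in PBS mice (32 cells), on 4 and 9 UMIs. In cells of 25% to 40% it stood at 256 CPM in ASO mice, on 26 UMIs in 84 cells, which was 0.793 times the level in PBS mice, on 16 UMIs in 38 cells. In cells of 40% or more Trpm3 stood at 192 CPM in ASO mice and 1461 CPM in PBS mice, where 32 UMIs came from 17 cells, 11 of them from the single cell of PBS mouse 3. Nlgn1 stood at 141 CPM in ASO mice against 438 CPM in PBS mice in the lowest stratum, 365 against 626 CPM in the middle one and 1474 against 3333 CPM in the highest. These sums pool mice and carry no test. Both genes were called in these same cells and are counted in the long-gene share, so their direction inside the strata is no separate support. The part of the long-gene share in the ASO comparison was not tested beyond these values.

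Neurexins, neuroligins and other synaptic adhesion genes included Nlgn1 and were mostly lower. Of 33 genes on the list, 31 had UMIs and 21 were tested: 18 were lower and 3 higher in ASO mice, with 1 called lower and a median log2 change of -0.23, against 520 lower of 1062 and a median of 0.01 over all genes. Besides Nlgn1, those of smallest p were Cntn5 (-0.91), Tenm2 (-0.71, SE 0.289) and Lsamp (-0.67, SE 0.292), none of which passed. Tenm2, a teneurin that binds latrophilins across the synapse, averaged 1687 ± 225 CPM in ASO mice and 2700 ± 419 CPM in PBS mice (SD, n = 3 each). Nrxn3, whose product is a neurexin, the family that binds neuroligin 1, had a log2 change of -0.33 (SE 0.293). Nlgn2 and Nlgn3 had 20 and 27 UMIs and Nrxn2 had 59, too few to test. Most members are among the long genes described above, and over the alternatives run the list median ran from -0.37 to -0.06, the last with no filter on low counts, where the median of all genes was 0.20.

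Of the 13 Trpm and Trpc channel genes, 11 had UMIs and Trpm3 alone had enough to be tested. Trpm7 and Trpm4 had 50 and 39 UMIs. Trpm7 averaged 132 ± 24.3 CPM in ASO mice and 176 ± 76.9 CPM in PBS mice, and Trpm4 averaged 115 ± 24.1 CPM in ASO mice and 104 ± 52.1 CPM in PBS mice (SD, n = 3 each). Trpm1, Trpm2 and Trpm6 had 1, 6 and 3 UMIs, and Trpm5 and Trpm8 had none.

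Glutamate receptor genes gave no call. Among AMPA and kainate subunits, 5 of 9 were tested and 4 were lower, with a median log2 change of -0.35. That median was 0.01 without PBS mouse 1, -0.16 without ASO mouse 3, -0.17 without ASO mouse 2 or without PBS mouse 2, and -0.63 without PBS mouse 3. Grik2 had a log2 change of -0.69 (SE 0.353), Gria1 of -0.40 (SE 0.384), Gria3 of -0.35 (SE 0.343) and Gria4 of 0.08 (SE 0.334). Gria2, the subunit that limits calcium entry, was at 1414 ± 110 CPM in ASO mice and 1457 ± 260 CPM in PBS mice (SD, n = 3 each). Grik1, Grik3, Grik4 and Grik5 had 11, 22, 29 and 27 UMIs. Gria1 stood at 253 CPM in the class against 1410 CPM in other neurons, and Gria4 at 515 against 198 CPM. Of the NMDA subunits, Grin2b, Grin1 and Grin2a were tested, with log2 fold changes of -0.00, 0.06 and -0.69, and Grin2c and Grin3b had no UMI. Grin2d and Grin3a had 9 UMIs each. Of the metabotropic receptors, Grm7, Grm5 and Grm8 were tested, at -0.65, 0.07 and -0.65, and Grm7 was the only member of these lists at an unadjusted edgeR p under 0.05 (adjusted 0.818). Grm3, Grm2 and Grm4 had 64, 27 and 11 UMIs.

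Of 12 GABA-A receptor subunits, 6 were tested, 4 were higher and 2 lower, and none passed. Gabrb1 had a log2 change of -0.55 (SE 0.344) and Gabrg3 of -0.08 (SE 0.370). Gabra2, Gabrb2, Gabra4, Gabra5, Gabra3, Gabrd and Gabrg1 had 61, 62, 60, 46, 25, 9 and 7 UMIs.

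Channel genes that set excitability were likewise below the threshold. Of 19 voltage-gated potassium channel genes and partners, 8 were tested and 6 were lower, with a median of -0.30, which was -0.05 without PBS mouse 2, -0.11 without PBS mouse 1, -0.15 without ASO mouse 2 and -0.53 without ASO mouse 3. Kcnb2, a delayed rectifier, was at 407 ± 121 CPM in ASO mice and 819 ± 374 CPM in PBS mice (SD, n = 3 each). Its log2 change was -0.98 (SE 0.334, adjusted p = 0.459 by edgeR), and that of Kcnh7 was -0.58 (SE 0.337). Kcnq5, whose product carries the M-current that acetylcholine closes, stood at 741 CPM in the class and 241 CPM in other neurons. Of the sodium and calcium channel genes, 7 of 19 were tested, 4 were higher and 3 lower, and the median was 0.18, which was -0.03 without ASO mouse 3, 0.00 without PBS mouse 3 and 0.02 without PBS mouse 2. Scn2a1, which encodes the sodium channel Nav1.2, had a log2 change of -0.25 (SE 0.301) and Cacna2d1, an auxiliary calcium channel subunit, of -0.37 (SE 0.314).

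The machinery of transmitter release and of the postsynaptic density showed no call. Of 24 release genes, 16 were tested, 11 higher and 5 lower, with a median log2 change of 0.09, which ran from 0.05 to 0.20 with 1 mouse left out, the ends being without ASO mouse 1 and without PBS mouse 2. Syt1, the calcium sensor of release, was at 3460 ± 338 CPM in ASO mice and 2722 ± 295 CPM in PBS mice (SD, n = 3 each; log2 fold change 0.33, SE 0.282). Slc17a6 was at 453, 374 and 256 CPM in ASO mice and 109, 276 and 226 CPM in PBS mice, so the groups overlapped (log2 change 0.72, SE 0.375, adjusted p by edgeR = 0.866). Slc17a7 was at 134, 178 and 119 CPM in ASO mice and 81.7, 63.7 and 64.6 CPM in PBS mice, groups that did not overlap, on too few UMIs to be tested. Of 19 postsynaptic genes, 12 were tested with a median of 0.02, which ran from -0.06 without PBS mouse 3 to 0.17 without PBS mouse 2. Dlgap1, a scaffold protein, had a log2 change of -0.41 (SE 0.296), and Nrgn was at 1146 ± 161 CPM in ASO mice and 954 ± 126 CPM in PBS mice (SD, n = 3 each).

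Cytoskeletal genes split, with 9 higher and 7 lower of 16 tested and a median log2 change of 0.12, which ran from 0.05 without PBS mouse 2 to 0.26 without PBS mouse 3. After Nefl, those of smallest p were Gap43, a growth cone protein, at -0.62 (SE 0.333) and Nefm, the medium neurofilament subunit, at 0.59 (SE 0.356). Calcium handling genes had 6 higher and 3 lower of 9 tested. Vsnl1, the calcium sensor visinin-like 1, stood at 1130 CPM in the class against 278 CPM in other neurons, and had a log2 change of 0.40 (SE 0.294).

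Stress and energy genes gave no call. Of 26 immediate early and dissociation genes, Hsp90aa1 and Egr1 had enough UMIs to be tested, at 0.01 and 0.22, and Fos, Jun and Arc had 20, 30 and 12 UMIs. Of 19 chaperone genes, 8 were tested with a median of 0.03, which was 0.31 without ASO mouse 1. Of 26 genes of glycolysis and ATP synthesis, 21 were tested with a median of 0.04, which was 0.29 without PBS mouse 3, and 2 were higher at an unadjusted edgeR p under 0.05, the ATP synthase gene Atp5g3 (0.82, SE 0.371) and the complex III gene Uqcrh (0.84, SE 0.404). Mitochondrially encoded genes had 7 higher and 3 lower of 10 tested with a median of 0.25, which ran from 0.07 without ASO mouse 2 to 0.37 without ASO mouse 3. Their summed level ran from 41482 to 54664 CPM in ASO mice and from 40068 to 57422 CPM in PBS mice. Of 18 genes of the amyloid precursor and its secretases, 7 were tested, with log2 fold changes from -0.29 to 0.20, and the secretase genes Bace1 and Adam10 had 28 and 25 UMIs. Of 21 measured genes of cholesterol synthesis, Hmgcs1 alone was tested, at -0.44 (SE 0.548). Of the nuclear noncoding RNAs, Malat1 was at 11527 ± 2513 CPM in ASO mice and 15902 ± 5425 CPM in PBS mice (SD, n = 3 each), and its log2 change of -0.49 (SE 0.278) did not pass.

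The last comparison asked whether the ASO effect in subiculum neurons differed from that in all other neuron classes summed, with both sums taken from the same 6 mice and mouse as a block. Of 6154 genes, 1 passed (0.0162%), and 314 (5.1%) were at an unadjusted edgeR p under 0.05. That gene was Sgcz, on chromosome 8 at 37522298 to 38661508 of GRCm38, minus strand. In other neurons it was at 241, 154 and 237 CPM in ASO mice and 215, 132 and 147 CPM in PBS mice, groups that overlapped, with a log2 change of 0.36 (SE 0.208). In subiculum neurons the log2 fold change was -1.08, and the effect in subiculum neurons minus that in other neurons was -1.39 (SE 0.285, adjusted p by edgeR = 0.0193). Against dentate neurons alone it was -0.40 (SE 0.357) and against CA1 neurons alone -0.95 (SE 0.484), and neither passed. Without ASO mouse 2, ASO mouse 3, PBS mouse 2 or PBS mouse 3 the edgeR adjusted p was 0.169, 0.361, 0.0776 and 0.0967. For the genes called in subiculum neurons the difference was -1.13 for Nlgn1 (SE 0.281, adjusted p by edgeR = 0.202) and -1.41 for Trpm3 (SE 0.372, adjusted p by edgeR = 0.257), so neither effect was shown to differ from that in other neurons. There Nlgn1 had a log2 change of -0.13 (SE 0.179) and Trpm3 of -0.23 (SE 0.177), and neither was among the 5 genes of 7592 (0.0659%) called in other neurons.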

How the data were processed

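Drop-Seq cells from 3 ASO and 3 PBS mice were analysed. The authors deposited a table of raw UMI counts per gene and cell (28324 genes, 12823 cells, 569 to 1999 UMIs per cell) with a class in each column name. The tools listed per the submitters' processing notes are bcl2fastq and STAR 2.5.0c, and the builds are mm10 and GRCm38, with no role or order. Neither the counting program nor the annotation is named in the sources used here. Per-cell depth limits detection, and intervals cover counting error only.

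Doublets (207 cells, 1.61%) were called per mouse with Scrublet in scanpy 1.11.5 and removed. No barcode lay above 15.0% mitochondrially encoded UMIs. UMIs of the class were summed per mouse and tested by edgeR 4.0.16 under R 4.3.3 (two-sided quasi-likelihood test, TMM factors, genes kept by filterByExpr, Benjamini-Hochberg over all tested genes, threshold 0.05), also in the interaction with other neurons. The script was checked on simulated counts. DESeq2 1.42.0 and limma 3.58.1 (voom) were alternatives. CPM is UMIs per 1000000 class UMIs. Shares were compared by exact permutation. Gene lengths and positions come from GENCODE M21; 97.7% of genes had one. Groups inside the class came from Leiden clustering of 1000 variable genes, 10 components and 15 neighbours. The labels do not say that mice came from separate litters or runs.

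Members and gene lists were chosen with earlier results of these data known. Named genes were Mylip, called genes, the 10 of smallest p in each direction, the 20 leading genes, the 20 genes with most UMIs, and up to 6 highest and 3 of smallest p per list, with receptor subunits, neurexins, neuroligins and Trpm channels in full; genes that lead the 11-cell group or the leading component were named after their values were seen. Some genes these rules name are not reported here.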

Additional observations from a re-analysis of the deposited data

Results flagged for a closer look

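The ASO effect on Sgcz in subiculum neurons minus that in all other neurons was -1.39 (SE 0.285, edgeR adjusted p = 0.0193), which stands here because the effect differed between 2 sets of cells from the same mice. Sgcz had 72, 25 and 69 UMIs in subiculum neurons of ASO mice and 68, 62 and 49 in those of PBS mice, and 118, 61 and 73 UMIs in other neurons of ASO mice and 78, 53 and 72 in those of PBS mice. It passed in 5 of 12 alternatives. The part of the long-gene share of cells in this difference was not tested.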

How the results depend on the processing

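Over 24 alternatives to the ASO comparison the number of called genes, 2 as reported, ran from 0 to 6. None of the 10 genes of smallest p in each direction changed direction in the 16 to 24 alternatives that gave it a value. These genes were chosen by p from the counts that the alternatives largely reuse, so a kept direction says little of their stability. No gene was called with no filter on low counts, with DESeq2, which also had no such filter, or with totals thinned to the smallest. The same held with cells of the subiculum and entorhinal class added and without cells holding glial marker UMIs. Among alternatives chosen after seeing the data, no gene was called without the 11 cells led by Calb2 or without cells of 40% or more long-gene UMIs. Nor was any called without the cell of each mouse with most Trpm3 UMIs or without the 1 cell of highest long-gene share. The count was also 0 without any 1 of 3 pairs of libraries, formed by rank of mt-Rnr2 over mt-Cytb. At an unadjusted p under 0.05 these fits held 472, 128, 37, 114, 44, 54, 40, 58, 53, 42, 41 and 83 genes, in that order. Genes tested numbered 15165 with no filter and with DESeq2, 541 with thinned totals and 2388 with the added class. They numbered 761 without cells holding glial marker UMIs, 949 without cells of 40% or more and 1080 without the 1 cell. The counts are therefore not comparable between fits. Limma voom called 1 gene, and a term for the 3 library pairs called 6, of which 1 was higher and 5 lower in ASO mice. With 1 mouse left out in turn the count ran from 0 to 3, being 0 without ASO replicate 2 and without PBS replicate 3. It was 3, all lower, without ASO replicate 1 and without PBS replicate 2. Without ASO replicate 3 it was also 3, but 2 were higher and 1 lower. Without PBS replicate 1 it was 2, with 1 higher and 1 lower, so the genes called and their direction changed with the mice used. Trpm3 passed in 9 of 24 alternatives and Nlgn1 in 8, with log2 fold changes from -2.06 to -0.77 and from -1.52 to -0.99. For the difference from other neurons, 1 gene as reported, the count was 0 with no filter, against CA1 neurons alone and against dentate neurons alone, 5 with doublets kept, and 0 to 2 with 1 mouse left out. The causes were not tested.

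The labels pair no mice, their replicate numbers being names only. The fit with the library pairs as a term, given above, is the only one with pairs. These pairs were seen in the data, and deviations from the group means correlated at 0.147, 0.0406 and 0.0225 within them, so they were not taken as a pairing. With 1 mouse left out, the difference in the share of subiculum neurons ran from 0.503 to 2.03 percentage points and that in Mylip from -25.8 to -4.61 CPM. With 3 mice against 3 the permutation test cannot pass the threshold, so it says nothing of their stability. Depth limits most lists: 1062 of 24078 detected genes had enough UMIs to be tested.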
